A study of Mus musculus with 3 samples.

Results

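The keratin and keratin-associated genes were examined for open chromatin in dopaminergic neurons (DNs) of the mouse midbrain. Members were all autosomal protein-coding genes of the GENCODE M21 annotation whose symbol is Krt or Krtap followed by a digit, which gave 110 of 20807 autosomal protein-coding genes. They comprised 28 type I keratins, 25 type II keratins and 57 keratin-associated proteins, and none lay on the X chromosome. The only measurement used was 1 list of 55326 ATAC-seq peaks, each 500 bp wide, on the mouse build mm10. ATAC-seq marks DNA that a transposase can reach, and a peak is a stretch where its insertions pile up. The list came from single-nucleus libraries of wild-type male C57Bl/6Nl mice, made from dissected midbrain ventral tegmental area (VTA) at 7 weeks (replicate 1) and 9 weeks (replicate 2). Sorting gated nuclei by scatter to drop debris and by DAPI to drop doublets and incomplete nuclei, with no marker of cell type. The authors removed further doublets with ArchR and picked the DN cluster from its accessibility at Th, with other DN marker genes as a check. Peaks reproducible between pseudobulk replicates were merged into this one list, which carries no height, depth or replicate of origin, so the spread between replicates could not be measured and no test between samples was possible. A gene without a peak is therefore one where none was called at the depth of these libraries. A library of mES cells of the same series was not analysed here.

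Keratins are the intermediate filament proteins of epithelia. A type I and a type II keratin pair with each other, so that simple epithelia use Krt8 with Krt18, basal keratinocytes Krt5 with Krt14, and the layers above them Krt1 with Krt10. Keratin-associated proteins crosslink hair keratin filaments in the hair shaft. The genes sit in a few dense clusters, and neurons build their own filaments from other members of the family.

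Several keratin peaks lay on the exon that encodes the tail of the protein, which is rich in glycine in several epidermal keratins, and 5 of these coding stretches are shown first. Krt1 and Krt10 encode the paired keratins of the upper epidermis, Krt77 is an epidermal type II keratin, Krt86 is a hair keratin and Krt90 is a further type II gene. The last exon of Krt88 also carried a peak and is not shown. Each sequence is the coding part of that exon within 1 DN peak, or its central 300 bases where it was longer, read 5′ to 3′ on the gene's strand from the GRCm38.p6 reference (mm10 coordinates). Capitals mark codons of the form GGN, the glycine codons, in the annotated reading frame.
Krt1, chr15:101845941-101846240, minus strand: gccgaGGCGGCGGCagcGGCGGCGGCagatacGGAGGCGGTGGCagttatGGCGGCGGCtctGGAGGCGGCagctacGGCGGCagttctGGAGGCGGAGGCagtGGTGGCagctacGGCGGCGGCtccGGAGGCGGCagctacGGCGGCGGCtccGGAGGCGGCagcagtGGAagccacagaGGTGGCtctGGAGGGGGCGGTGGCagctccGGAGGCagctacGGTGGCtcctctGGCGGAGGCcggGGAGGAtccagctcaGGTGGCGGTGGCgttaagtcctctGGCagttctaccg
Krt10, chr11:99385950-99386249, minus strand: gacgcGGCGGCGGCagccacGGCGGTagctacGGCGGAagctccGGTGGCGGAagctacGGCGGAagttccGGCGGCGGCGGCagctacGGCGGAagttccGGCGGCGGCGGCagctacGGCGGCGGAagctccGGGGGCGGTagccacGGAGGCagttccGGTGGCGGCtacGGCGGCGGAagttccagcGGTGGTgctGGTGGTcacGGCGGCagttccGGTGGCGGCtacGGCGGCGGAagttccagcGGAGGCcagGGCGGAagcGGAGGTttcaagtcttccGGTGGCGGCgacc
Krt77, chr15:101859859-101860103, minus strand: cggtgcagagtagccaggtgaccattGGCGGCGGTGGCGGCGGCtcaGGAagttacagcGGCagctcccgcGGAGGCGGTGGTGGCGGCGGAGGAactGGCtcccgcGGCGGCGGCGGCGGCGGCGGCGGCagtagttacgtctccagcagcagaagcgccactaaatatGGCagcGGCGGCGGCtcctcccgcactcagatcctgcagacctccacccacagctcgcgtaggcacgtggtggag
Krt90, chr15:101553151-101553371, minus strand: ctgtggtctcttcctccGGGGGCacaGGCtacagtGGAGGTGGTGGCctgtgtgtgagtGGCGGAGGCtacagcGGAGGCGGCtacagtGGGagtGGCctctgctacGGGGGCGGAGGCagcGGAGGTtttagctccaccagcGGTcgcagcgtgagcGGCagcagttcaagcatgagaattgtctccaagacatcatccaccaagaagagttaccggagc
Krt86, chr15:101479376-101479554, plus strand: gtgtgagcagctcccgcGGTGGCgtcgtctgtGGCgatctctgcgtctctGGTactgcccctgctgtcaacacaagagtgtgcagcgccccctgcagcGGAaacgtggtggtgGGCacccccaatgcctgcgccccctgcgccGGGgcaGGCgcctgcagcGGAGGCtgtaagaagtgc

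The Krt1 stretch is in exon 9 of 9 and 58 of its 99 whole codons were GGN (58.6%). The Krt10 stretch is in exon 7 of 8 with 57 of 99 (57.6%). Exon 9 of Krt77 held 29 of 81 (35.8%), exon 9 of Krt90 held 23 of 73 (31.5%) and exon 9 of Krt86 held 10 of 59 (16.9%). Over all coding sequence of autosomal genes, 6.38% of codons were GGN. Local alignment of the 500-bp peaks of Krt1, of type II, and Krt10, of type I, paired 243 bases, of which 196 were identical. The other 35 pairs among 9 keratin peaks, 1 per gene, aligned over at most 95 paired bases. Identity within a local alignment is high by construction and ran from 70% to 100% over the 36 pairs. Every 50-base word sampled in the bodies of Krt1, Krt10 and Krt77 occurred once in the genome.

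A peak in the gene body or within 5 kb of it was found for 23 of the 110 members, or 20.9% (exact binomial 95% interval 13.7% to 29.7%, counting error only). Among all autosomal protein-coding genes, 70.3% had one. The members are short genes, with a median body of 2350 bp against 17629 bp for all genes, and a short gene offers less room for a peak. Among autosomal genes no longer than the longest member, Krt80 at 22719 bp, 58.1% had a peak. For bodies of at most 2 kb the share was 7 of 55 members (12.7%) against 33.3% of 1399 genes of that size, and for longer bodies up to that of Krt80 it was 16 of 55 members (29.1%) against 61.4% of 10458 genes. The members were therefore below the other genes in both size ranges.

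The share with a peak is given by class beside that of genes of like length, since the median body was 892 bp in keratin-associated, 5607 bp in type I and 7795 bp in type II genes. Type II keratins had a peak in 12 of 25 genes (48%, interval 27.8% to 68.7%), type I keratins in 4 of 28 (14.3%, interval 4.03% to 32.7%) and keratin-associated genes in 7 of 57 (12.3%, interval 5.08% to 23.7%). The type II interval includes the 61.4% of all genes with bodies over 2 kb up to that of Krt80, and the type I interval lies below it. That of the keratin-associated genes lies below the 33.3% of all genes with bodies up to 2 kb. The classes differed in gene length as well as in share, and type I and type II genes were both set against the same 61.4%. The part of gene length in the counts was not tested. Genes within a class are neighbours and are not independent, so these intervals are a guide to counting error only. On the gene body itself, a peak was found for 14 members (12.7%) against 64.7% of all autosomal coding genes. For bodies up to 2 kb this was 3.64% of members against 22.7% of all genes, and for longer ones up to that of Krt80 21.8% against 54.3%. No member had more than 2 peaks, whereas the median over all autosomal coding genes was 2.

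**Figure D1:**
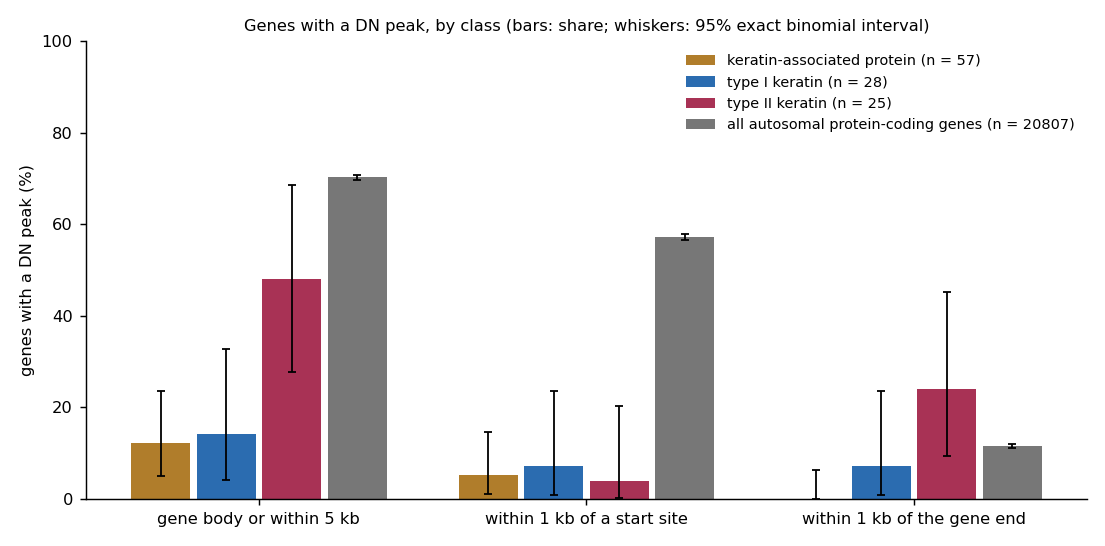
Share of genes with a DN peak in % (bars, with exact binomial 95% intervals as whiskers) for the 3 classes of members and for all 20807 autosomal protein-coding genes, by where the peak lay. At the start site 5.26% of keratin-associated, 7.14% of type I and 4% of type II genes had a peak against 57.2% of all genes. At the gene end it was 24% of type II keratins against 11.5%, within their interval, and no keratin-associated gene. Not drawn: the start-site share was 23.5% of genes with bodies up to 2 kb and 48.9% of longer ones up to that of Krt80.

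A start site without a peak was the rule for every class. A peak centre within 1 kb of an annotated start site was found for 6 members (5.45%, interval 2.03% to 11.5%) against 57.2% of all autosomal genes. These were Krt222, a keratin-like gene that forms the outer edge of the chromosome 11 cluster, Krt10, Krt77, and the keratin-associated genes Krtap10-10, Krtap16-1 and Krtap24-1. The centre lay 8.5 bp from the start of Krt222, 77.5 bp inside Krt77 and 124 bp inside Krtap10-10. For Krtap16-1, which has a single exon, it lay 674 bp inside the gene, and for Krtap24-1 it lay 565 bp upstream. The Krt10 peak was 3301 bp from the outermost start and counted because a short annotated transcript begins 33.5 bp from its centre. With the outermost start alone, 5 members remained. For bodies of at most 2 kb, 3 of 55 members (5.45%) had a peak at a start site against 23.5% of 1399 genes of that size. For longer bodies up to that of Krt80 it was 3 of 55 members (5.45%) against 48.9% of 10458 genes.

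The median distance from a member's nearest start site to the nearest peak centre was 39.7 kb, against 0.238 kb for all autosomal coding genes. It was 12.6 kb for type II keratins, 33.9 kb for type I keratins and 165 kb for keratin-associated genes. For 36 members (32.7%) no peak lay within 100 kb of a start site, against 12.2% of all genes. The farthest member had its nearest peak 403 kb away.

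**Figure D2:**
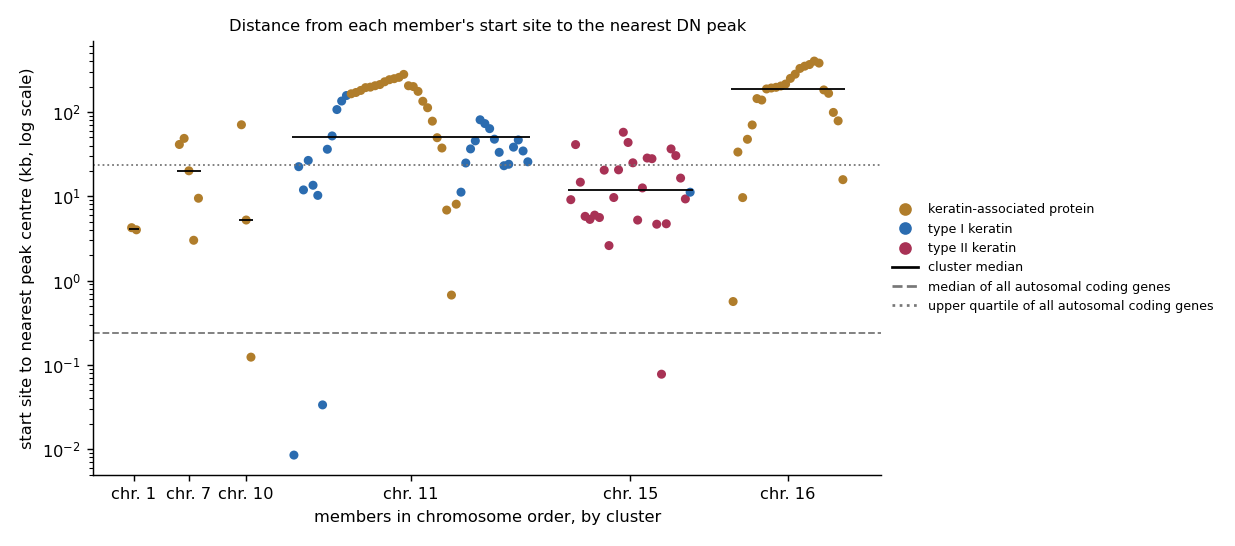
Distance in kb (log scale) from each of the 110 members' start sites to the nearest DN peak centre, with members in chromosome order by cluster; points are single genes, black lines cluster medians, and the dashed and dotted lines the median (0.238 kb) and upper quartile (23.8 kb) of all autosomal coding genes. The points form arches over the chromosome 11 and chromosome 16 clusters, up to 280 kb and 403 kb, and stay at or below 57.6 kb in the chromosome 15 cluster.

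Many member promoters held the letters of a TATA box, an element just upstream of the start in some promoters. RefSeq promoters (GRCm38.p6, 250 bases before to 50 after the start) were matched for 87 of 110 members, and the letters TATAAA were searched in the last 50 bases before the start on the gene's strand only. They were present in 49 of 88 member promoters (55.7%) and in 2.66% of 31396 autosomal promoters. The share was 66.7% for keratin-associated genes, 54.5% for type I and 20% for type II keratins. Among all autosomal coding genes matched, 24.3% of 589 genes with TATAAA had a peak at a start site, against 60.6% of 15115 genes without it. Among the members these were 3 of 49 (6.12%, interval 1.28% to 16.9%) and 1 of 38 (2.63%, interval 0.0666% to 13.8%). The part of the letters in the start-site calls was not tested. The 60 bases before the start are shown for a type II keratin without the letters, Krt5, which marks basal keratinocytes, for Krt10, and for the first and last keratin-associated genes of the chromosome 16 peak-free stretch described below. Capitals mark TATAAA. In Krtap13-1 the letters begin 52 bases before the start, just outside the window searched, so this promoter is not among the 49.
Krt5, chr15:101712906-101712965, minus strand: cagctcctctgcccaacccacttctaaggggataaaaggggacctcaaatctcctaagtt
Krt10, chr11:99389365-99389424, minus strand: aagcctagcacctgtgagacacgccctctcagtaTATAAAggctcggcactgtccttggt
Krtap13-1, chr16:88728802-88728861, plus strand: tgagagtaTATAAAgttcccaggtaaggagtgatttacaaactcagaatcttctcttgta
Krtap11-1, chr16:89571184-89571243, minus strand: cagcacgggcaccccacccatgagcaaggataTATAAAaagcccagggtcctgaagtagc

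None of these 4 promoters had a peak within 1 kb of the start shown. The bases before the start that did lie in a peak are given for comparison for Krt222 and Krtap10-10. Krtap10-10 carries TATAAA (capitals) and Krt222 does not.
Krt222, chr11:99244086-99244343, minus strand: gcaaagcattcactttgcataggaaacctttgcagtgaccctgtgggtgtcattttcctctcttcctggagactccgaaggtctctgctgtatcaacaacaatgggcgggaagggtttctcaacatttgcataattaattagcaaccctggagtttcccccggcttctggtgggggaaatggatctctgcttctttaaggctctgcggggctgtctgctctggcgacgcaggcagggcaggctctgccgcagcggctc
Krtap10-10, chr10:77835821-77835946, plus strand: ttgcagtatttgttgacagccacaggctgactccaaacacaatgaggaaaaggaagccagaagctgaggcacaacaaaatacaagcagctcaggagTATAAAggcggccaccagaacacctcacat

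Several type II keratins had a peak in the last kb of the gene or just past it. A peak centre within 1 kb of the annotated gene end was found for 6 of 25 type II genes (24%, interval 9.36% to 45.1%) against 11.5% of all autosomal genes, an interval that includes the background. They were Krt81, Krt83 and Krt86, keratins of the hair cortex, Krt88, Krt90 and Krt1. All 6 lacked a peak at a start site. The count depends on the distance: within 500 bp of the end it was 1 of 25, Krt88, and within 2 kb it was 7. Among the 18 type II genes of at least 90% unique sequence, 3 had a centre within 1 kb of the end. Of the 2391 autosomal genes with a peak at the end, 482 lacked one at the start. The type I keratins with a peak at the end were Krt10 and Krt28, a keratin of the inner root sheath that encloses the growing hair. No keratin-associated gene had one.

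Within gene bodies, 9 of 10 type II peak centres lay beyond the midpoint of the gene (90%, interval 55.5% to 99.7%), against 42.7% of 35784 centres in all autosomal coding genes and 33.9% in genes no longer than Krt80. The centre lay 87.0% of the way along Krt1, 87.8% along both Krt83 and Krt77, 91.4% along Krt90, 91.9% along Krt86 and 93.9% along Krt88. Krt71, an inner root sheath keratin, and Krt76, a keratin of the oral epithelium, had theirs at 57.1% and 55.1%, and Krt80 at 64.7%. The remaining type II centre was the one at the start of Krt77. The centres of Krt1, Krt83, Krt86, Krt88 and Krt90 are those counted at the gene end above, so the midpoint reading is not a separate result. Centres just inside the outermost start count in the first part of a gene, and type II genes mostly lacked these. Peaks beyond the gene were found 4.48 kb past the end of Krt25, an inner root sheath keratin, 2.30 kb and 3.23 kb past that of Krt72 of the same layer, and 0.633 kb past that of Krt81.

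**Figure D3:**
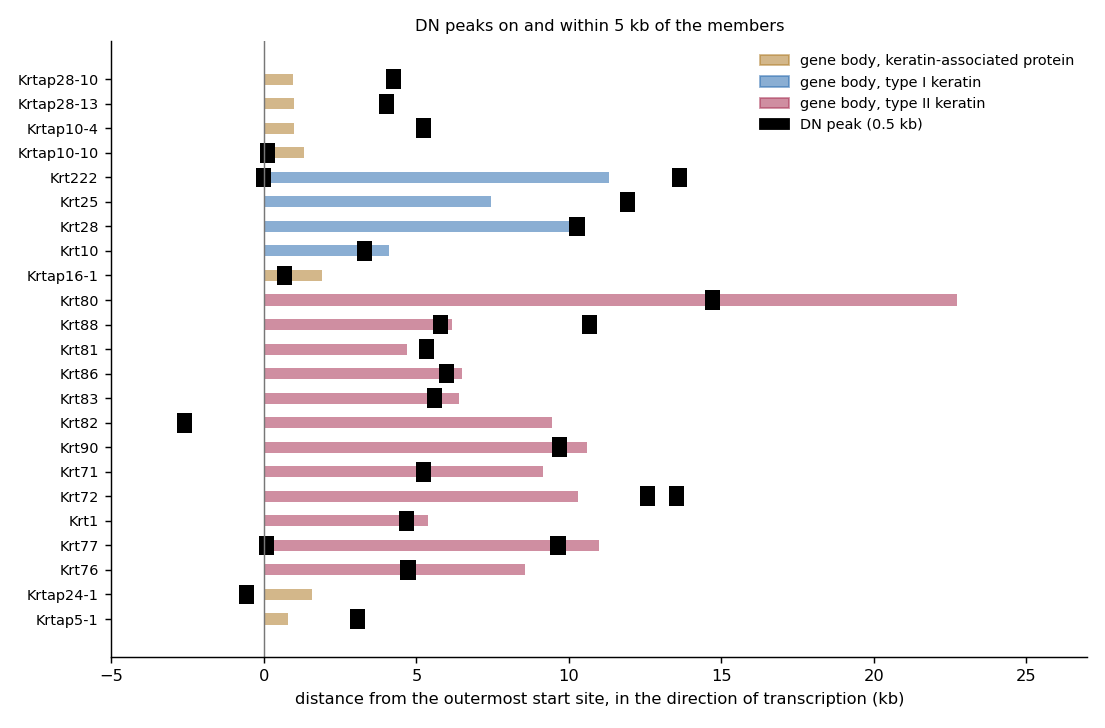
Bodies of the 23 members with a peak (coloured bars, kb from the outermost start site in the direction of transcription) and their DN peaks (black, 0.5 kb wide). Peaks sat at the start of Krt222, Krt77 and Krtap10-10, whereas 6 type II keratins had a peak within 1 kb of the gene end.

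The last exon itself was overlapped by a peak in 5 of 25 type II genes (20%, interval 6.83% to 40.7%) and in 1 of 28 type I genes, against 9.56% of 17680 autosomal coding genes with 3 or more exons. The type II interval includes that 9.56%. In 4 of the 25 type II genes (16%) the gene had no peak at a start site, a combination held by 1.79% of those autosomal genes. The 4 were Krt88, Krt86, Krt90 and Krt1, and in Krt77 the last exon and the start were both covered. Since 24 of the 25 type II genes lacked a start-site peak and 57.2% of all autosomal genes had one, the combination also carries that difference. This reading was chosen after the peaks were seen. The peak on Krt1 held 385 coding bases, that on Krt77 held 245, that on Krt90 221, that on Krt86 211 and that on Krt88 155. On Krt28 the peak reached only 18 bases into the untranslated end of the last exon, and on Krt83 it did not reach the last exon. Type II keratins have a median of 9 exons and type I keratins of 8.

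Richness in GGN codons went with a peak in some keratins and not in others. The richest run of 100 codons reached 60% GGN in Krt10 and 59% in Krt1, and a peak lay on both. It reached 61% in Krt9, the keratin of palms and soles, and 60% in Krt2, a keratin of the upper epidermis, and no peak lay on either. Of 20 keratins with at least 30% GGN in that run, 3 had a peak on it (15%, interval 3.21% to 37.9%), in Krt1, in Krt10 and at the start of Krt77. Of the 33 keratins under 30% it was 1 (3.03%, interval 0.0767% to 15.8%), and these intervals overlap. Among all autosomal coding genes the share was 16.3% of the 203 genes with at least 30% GGN and 16.9% of the other 19857. In 10 of 13 pairs of a peak and the keratin gene it overlapped (76.9%), the peak had the higher GC content. Over all autosomal coding genes this was so for 82.3% of pairs, and for 81.2% where the gene was no longer than Krt80. GC content was 66% in the Krt1 peak against 49.5% of the gene, 61.4% against 47.0% in Krt10, and 61.8% against 49.1% in the peak at the end of Krt77. The part of base composition in these calls was not tested.

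The clusters differed in how many peaks they held. The chromosome 11 cluster (chr11:99232761-100269871, 1037 kb) holds 27 type I keratins and 23 keratin-associated genes from Krt222 to Krt42, and 5 of the 50 had a peak (10%, interval 3.33% to 21.8%), against 70.3% of all autosomal genes and 58.1% of those no longer than Krt80. It held 8 peaks, or 7.71 per Mb, while chromosome 11 as a whole had 36.6 per Mb. Among autosomal windows of that length, 31.2% held no more than 8 peaks. The 18 other coding genes within the span had none.

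The chromosome 15 cluster (chr15:101347444-102032027, 685 kb) holds the 25 type II keratins and the type I gene Krt18. A peak was called for 12 of the 26 (46.2%), and the interval of 26.6% to 66.6% includes the 58.1% of genes no longer than Krt80 but not the 70.3% of all genes. The 21 peaks in its span gave 30.7 per Mb against 23.1 per Mb for the chromosome. Of autosomal windows of that length, 76.8% held no more than 21. The keratin-associated cluster of chromosome 16 (chr16:88610705-89571183, 960.5 kb) was the sparsest per Mb of the 3 large clusters. It had 2 peaks, 2.08 per Mb against 19.6 for the chromosome, and a peak near 1 of its 24 members, Krtap24-1 (4.17%, interval 0.105% to 21.1%), below both of those shares. Of autosomal windows of that length, 13.4% held no more than 2 peaks.

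The small clusters contain keratin-associated genes only. On chromosome 7, the peak near Krtap5-1 was the one call among 5 members, with 6 peaks in 130.1 kb, and 87% of windows of that length held no more. On chromosome 10, Krtap10-4 and Krtap10-10 of 3 members had a peak, with 2 peaks in 117 kb, and 66.7% of windows held no more. The intervals of these counts, 0.505% to 71.6% for 1 of 5 and 9.43% to 99.2% for 2 of 3, include both the 33.3% of all genes with bodies up to 2 kb and the 70.3% of all autosomal genes. On chromosome 1, Krtap28-10 and Krtap28-13 each had a peak beyond the gene's end, and that near Krtap28-10 lay 199 bp from the start site of Slc19a3, a thiamine transporter gene. Bodies of the chromosome 7 members were poorly covered by unique sequence, with 43.2% to 77% of 50-base words occurring once in the genome, and calls there and at Krtap10-10, whose peak was 59.3% unique, are less certain.

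**Figure D4:**
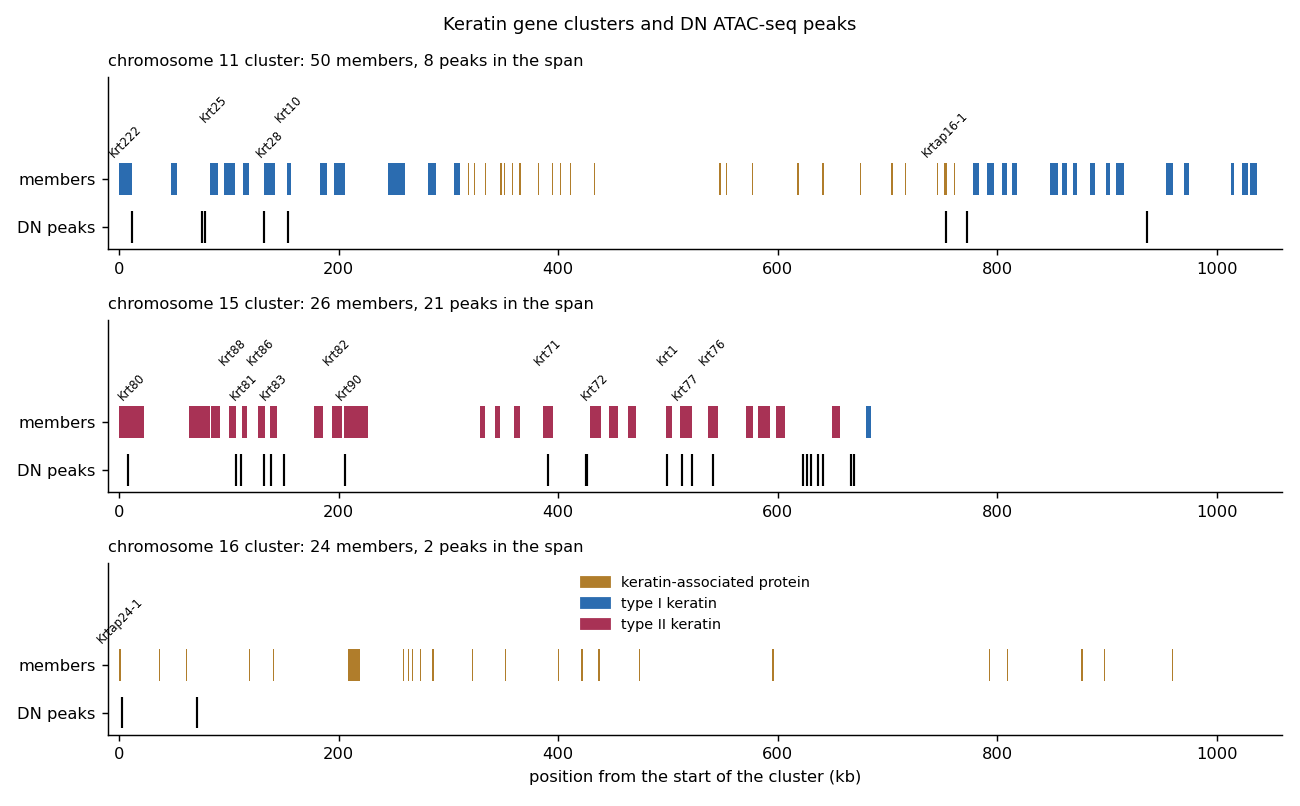
Members (coloured by class, upper row) and DN peaks (black lines, lower row) along the 3 large clusters, in kb from the start of each cluster; names are given for members with a peak within 5 kb. Peaks were spread along the chromosome 15 cluster, missing from the middle of the chromosome 11 cluster, and found only near the start of the chromosome 16 cluster, where there were 2.

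Long stretches of these clusters were free of peaks. On chromosome 11 no peak was called over 599 kb (chr11:99386314-99985673), from Krt12 of the cornea to Krtap29-1, a stretch with 26 members among 44 coding genes. It ranked 10th of 54551 autosomal gaps between neighbouring peaks by the number of coding genes, and 411th by length. On chromosome 16 no peak was called over 905 kb (chr16:88681582-89586707), from Krtap13-1 to Krtap11-1, with 21 members among 34 coding genes, 19th by genes and 215th by length. The median gap was 10.5 kb and the 90th percentile 99 kb.

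The keratins of basal and injured epidermis fell into shorter gaps. A gap of 164 kb on chromosome 11 held 10 type I keratins from Krt33a, a hair keratin, to Krt19, a simple epithelial keratin. The next, of 126 kb, held 5 from Krt9 to Krt42, including Krt14 of basal keratinocytes and the wound keratins Krt16 and Krt17. On chromosome 15 a gap of 184 kb held Krt75, Krt6b, Krt6a and Krt5, where Krt6a and Krt6b are the wound keratins of type II. The Krt6a and Krt6b bodies were 64.1% and 59.2% unique, and 88.6% and 82.6% with the 5 kb on either side, while the Krt5 body was 96.2% unique. The part of sequence uniqueness in these calls was not tested.

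Members of mostly unique sequence had a peak less often than the 70.3% of all autosomal genes or the 58.1% of those no longer than Krt80. Among the 69 members with at least 90% unique 50-base words in the body, 16 had a peak (23.2%, interval 13.9% to 34.9%), and among the other 41 it was 7 (17.1%, interval 7.15% to 32.1%). In the unique set the counts were 9 of 18 type II (50%, interval 26% to 74%, which includes both of those shares), 4 of 25 type I (16%, interval 4.54% to 36.1%) and 3 of 26 keratin-associated genes (11.5%, interval 2.45% to 30.2%). The least unique body was that of Krtap4-13, at 18.2%.

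The keratins were next read by where the proteins are used, in groups drawn up with the peaks in view. The background for these counts is 70.3% of all autosomal genes, or 58.1% of those no longer than Krt80. None of 6 simple epithelial keratins (Krt7, Krt8, Krt18, Krt19, Krt20 and Krt23) had a peak (interval 0% to 45.9%). None of 4 wound keratins had one (interval 0% to 60.2%, which includes the 58.1%), and the Krt6a, Krt6b and Krt16 bodies were 59.2% to 71.5% unique. Among 8 epidermal keratins, Krt1, Krt10 and Krt77 had one (37.5%, interval 8.52% to 75.5%, which includes both shares). Among 7 type I hair keratins none had a peak (interval 0% to 41.0%), while 4 of 6 type II hair keratins did, namely Krt81, Krt82, Krt83 and Krt86 (66.7%). Among 7 inner root sheath keratins the 4 were Krt25, Krt28, Krt71 and Krt72 (57.1%). The shares of these last groups are near the background. The peak credited to Krt82 lies 2604 bp before its start and is the one on the last exon of Krt90, and that near Krt81 also lies within 5 kb of Krt88, so neighbouring members shared peaks.

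Krt8 and Krt18, the pair made by simple epithelia, had peaks around them but none within 5 kb. The 42.4 kb between Krt78 and Krt8 (chr15:101954288-101996697) hold no gene and contained 5 peaks. Of autosomal windows of that length, 4.7% held at least as many, but the interval was picked after its peaks were seen and nothing is read from that share. The 23.7 kb between Krt8 and Krt18 contained 2. The nearest peak lay 9.32 kb from a start site of Krt8 and 11.2 kb from that of Krt18.

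The motif TGANTCA, bound by AP-1 factors that act in keratinocytes, was searched in the peaks. It reads the same on both strands and each peak was counted once, however many matches it held or however they overlapped. It was present in 1 of the 25 peaks near members (4%, interval 0.101% to 20.4%), the peak at the start of Krt77, and in 12.3% of all autosomal peaks, which that interval includes. Among the 39 peaks within the cluster spans it was in 5 (12.8%). Of the 25 peaks, 6 lay in an exon (24%) against 5.79% of all autosomal peaks, 4 in an intron (16% against 37.8%), 8 within 1 kb of a start site (32% against 29.8%) and 7 between genes (28% against 26.6%). GC content of the 25 had a median of 52.6%, and 52.0% for all peaks.

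The genes next to the clusters carried peaks more often than the members did. Of the 2 nearest non-member coding genes on each side of the 5 clusters with 3 or more members, 11 of 20 had a peak (55%, interval 31.5% to 76.9%), below the 70.3% of all autosomal genes but with an interval that includes it. Those without a peak include gene models with Gm symbols beside the chromosome 10 and chromosome 7 clusters, named below. The chromosome 11 cluster begins 1.74 kb from Smarce1, a subunit gene of a chromatin remodelling complex, whose start site peak lies within 5 kb of Krt222. At this left edge there were 6 peaks in the 200 kb outside and 5 in the 200 kb inside. At the right edge there were 22 outside and 1 inside. Ccr7, a chemokine receptor gene on the left, had 1 peak. Eif1, a translation initiation factor gene 50.01 kb beyond Krt42, had 4 peaks and Gast, the gastrin gene, had 3.

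At the left edge of the chromosome 15 cluster there were 16 peaks in the 200 kb outside and 6 inside, and at the right edge 22 and 11. Eif4b, a translation initiation factor gene, lies 41.7 kb beyond Krt18 and had 4 peaks, and Tns2, a tensin gene of cell adhesions, had 10. On the left, Atg101, an autophagy gene, had 1 and 6030408B16Rik none. Around the chromosome 16 cluster the sparse region ran on, with 0 peaks in the 200 kb before Krtap24-1 and 1 in the 200 kb after Krtap11-1. The claudin genes Cldn8 and Cldn17 on its left had none, and Tiam1, a guanine exchange factor gene 216 kb to the right, had 23. The 4 neighbours of the chromosome 10 cluster, Gm10142, Gm10024, Gm36176 and Gm10318, had none. To the left of the chromosome 7 cluster, Gm4553 and Gm29735 had none. These gene models lay 4.43 to 17.4 kb from the clusters, and whether they are themselves keratin-associated genes was not tested. Beyond the right edge of the chromosome 7 cluster Ifitm10, an interferon-induced transmembrane protein gene, had 5 and Gm49369 had 3. Of the outermost members of these small clusters, Krtap12-1 on chromosome 10 and Krtap5-2 and Krtap5-4 on chromosome 7 had no peak, and the nearest peak lay 70.7, 41.2 and 9.49 kb from their start sites.

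**Figure D5:**
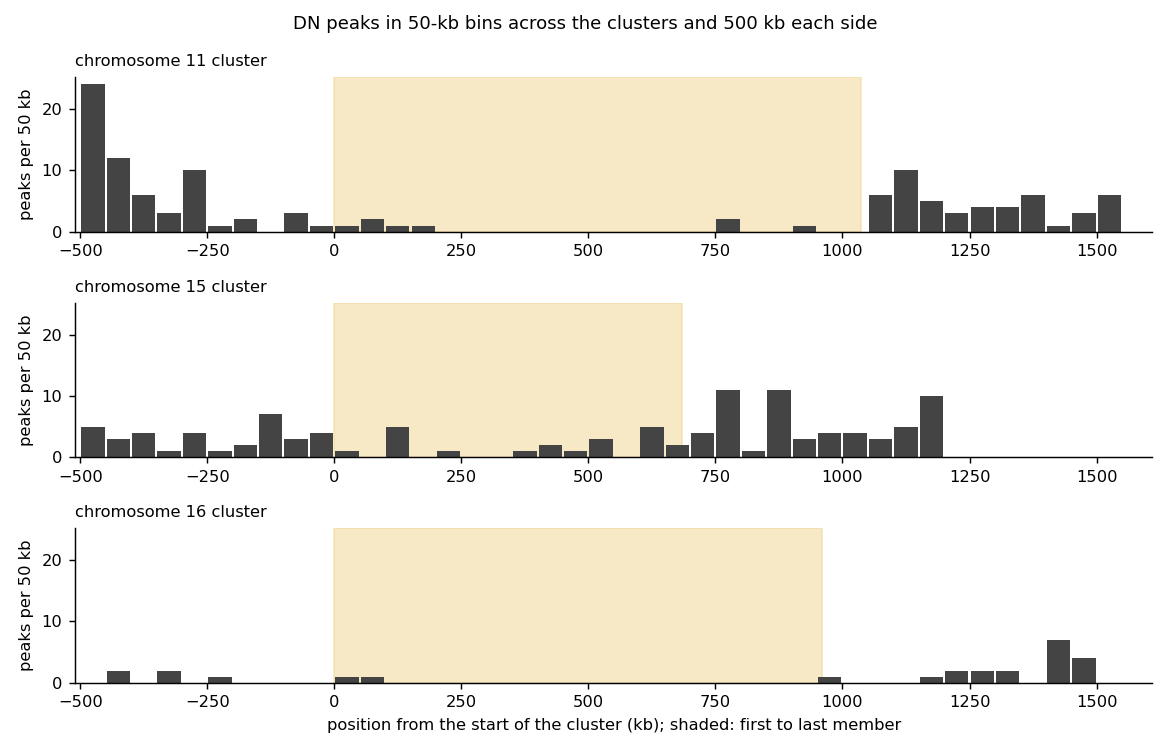
DN peaks in 50-kb bins from 500 kb before to 500 kb after the 3 large clusters, in kb from the cluster start; the span from first to last member is shaded. Around the chromosome 11 cluster peaks were already few in the 250 kb before its left edge, with 0 to 3 per bin, were absent through its middle and rose past its right edge. They were present through much of the chromosome 15 cluster. Around the chromosome 16 cluster they were few on the left, with 0 to 2 per bin, and in the first 200 kb on the right. Farther right they rose, to 7 in 1 bin.

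Other gene lists were read the same way to place the keratins. All 9 DN marker genes, among them Th, which makes the dopamine precursor, and Slc6a3, the dopamine transporter, had a peak at a start site, against 57.2% of all autosomal genes. Th, Slc6a3, Lmx1b and Foxa2 were among the genes by which the authors chose or checked the cluster, so for these the result follows from the choice and is no independent check of the label. Of 6 markers of other midbrain cells, Olig2, Sox10 and Cldn5 had no peak within 5 kb, while Gfap and Foxj1 had 3 each and Cx3cr1 had 9. One of the Foxj1 peaks, a gene of ciliated ependymal cells, lay 0.0755 kb from its start site, and Gfap and Cx3cr1 had none within 1 kb of theirs. Of 16 intermediate filament genes outside the keratins, 14 had a peak (87.5%, interval 61.7% to 98.4%, which includes the 70.3% of all autosomal genes), including the neurofilament genes Nefl, Nefm, Nefh and Ina, and the exceptions were Nes and Prph. Of 40 genes of the epidermal differentiation complex, which encode proteins of the cornified skin surface in a single cluster on chromosome 3, 1 had a peak (2.5%, interval 0.0633% to 13.2%), Lor, against the same 70.3%, or 58.1% of genes no longer than Krt80. Of 17 other genes that act in keratinocytes or hair follicles, 11 had a peak within 5 kb (64.7%, interval 38.3% to 85.8%, which includes 70.3%), among them Trp63, the regulator of epidermal fate, and Dsp, a desmosome gene. At a start site it was 6 of the 17 (35.3%, interval 14.2% to 61.7%), against 57.2% of all autosomal genes, and on the body 8 (47.1%) against 64.7%. Dsp had a peak at a start site, while the peak nearest to a start of Trp63 lay 3.80 kb away. Hoxc13, Lhx2, Msx2, Ovol1, Pkp1 and Ppl had no peak within 5 kb.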

How the data were processed

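The deposited file is a peak list with 3 columns (chromosome, start and end) and no header, score or count, so its values are positions in mm10. The authors processed both DN libraries with Cell Ranger and ArchR, per the labels' tool list and the study's methods, removed doublets and low-quality nuclei, made pseudobulk replicates of the DN cluster, and merged the reproducible peaks into 1 list. The methods mention a rule that a peak be found in a set share of nuclei, but whether it was applied to this list is not given. Bowtie is also listed, for the series.

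Starts were read as counted from 0 and converted to 1-based positions. Genes came from GENCODE M21 (basic) and sequence from GRCm38.p6. A gene had a peak when at least 1 bp of a peak overlapped its body or the 5 kb on either side. Start and end calls used peak centres within 1 kb. Members were joined into clusters at gaps of at most 500 kb. Uniqueness was the share of 50-base words, sampled every 10 bp in bodies, 20 bp in bodies with flanks and 5 bp in peaks, that occur once on chromosomes 1 to 19, X and Y. Windows of a cluster's length were laid at 50-kb steps over all autosomes. Intervals are exact Clopper-Pearson (scipy 1.17.1) at 95%. Local alignments used Biopython 1.88. The overlap functions were tested on simulated data.

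The rule for named genes took every member with a peak, the outermost members, the 2 nearest non-member genes each side of a cluster, and fixed lists by role and for comparison. Some genes of these lists are given only within counts. Members named as the ends or contents of a gap, as the least unique body or in a role group, among them Krt12, Krtap29-1 and Krtap4-13, were chosen after their values were seen. Members and lists were chosen with earlier results of these data known. The role groups of keratins and the readings of intervals around Krt8, gene ends, gene midpoints, last exons, GGN codons and TATAAA were added after the peaks were seen.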

Additional observations from a re-analysis of the deposited data

How the results depend on the processing

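The count of 23 members with a peak, of 110, stayed between 16 and 30 with a flank of 2 kb or 10 kb, with peak centres, with starts counted from 1, without peaks at another gene's start, with members of at least 90% unique sequence (16 of 69), and with each peak given to 1 member (chosen after seeing the data). With the gene body alone it was 14. The share of all autosomal genes, 70.3%, was 64.7% with the body alone, 67.6% and 73.5% with flanks of 2 kb and 10 kb, and 58.1% for genes no longer than the longest member. The count at the gene end, 8 of 110, was 2 within 500 bp and 11 within 2 kb. Among the 69 members with at least 90% unique sequence it was 5, a lower count in a smaller set. The gene-end reading and all of its alternatives were chosen after seeing the data. The other 20 of 27 alternatives, among them those for start sites, cluster joining, edge genes and the median distance, left counts within 1.5 times and shares within their interval. Leaving out a replicate and a stricter peak threshold could not be run on the list, which merges both libraries and has no score. The reads and signal tracks of these libraries were not analysed here. No paired analysis was possible because the list has no value per replicate. The list gives no depth at a gene, which limits what the absence of a peak shows.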
